A study of Mus musculus with 6 samples.

Results

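The genes described here are 6 STAT transcription factors and 3 SOCS inhibitors: Stat2, Stat3, Stat4, Stat5a, Stat5b, Stat6, Socs1, Socs2 and Socs3. They were chosen by name from the 21627 protein-coding genes examined. Their regions were the ATAC-seq peaks that overlapped a gene body or the 25 kb on either side of it, merged over the 6 peak lists where peaks overlapped by at least 1 bp. This gave 279 of the 882758 merged regions of the series. They lay in 7 separate stretches of the genome, 708.743 kb in all, because Stat5b, Stat5a and Stat3 are neighbours on chromosome 11 and share their flanks.

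The lists came from aged C57BL/6 mice (3 lists) and young C57BL/6 mice (3 lists), and no genetic change or drug treatment is recorded for either age. All 6 samples were long-term haematopoietic stem cells sorted from bone marrow as lineage-negative cells with c-Kit and Sca-1 but without Flk2 or Cd34, and all were then kept overnight at 3% oxygen in buffered saline with serum, so neither age was profiled straight from the animal. ATAC-seq uses a transposase that cuts open chromatin, and a peak is a place where cuts pile up above the background of the same sample. Neither the ages in months nor the sex of the mice is stated in the labels, and nor is the number of animals behind each sample.

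STAT proteins are latent transcription factors that JAK kinases phosphorylate at cytokine receptors. Phosphorylated STATs pair up, enter the nucleus and bind DNA, mostly at sites built from TTC and GAA in opposite orientation. SOCS genes are among their direct targets, and the SOCS proteins block the receptors or the kinases, which closes a negative feedback loop. In blood stem cells this pathway carries the signal of thrombopoietin, interleukins and interferons.

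The sequences around the listed starts are printed first because they show which of these genes hold letters that STAT proteins or interferon-activated complexes are known to bind. Each runs 5′ to 3′ on the strand of the gene, from 250 bases before to 50 bases after a start listed by RefSeq on GRCm38.p6, to which mm10 corresponds. Of the 9 genes 8 had an entry, with 11 starts between them; Socs2 had none. Capitals mark matches to 3 motifs searched on both strands: a STAT site (TTCNNNGAA), the same site with 4 spacer bases between TTC and GAA, and an interferon element made of TTTC, any 2 bases and TTTC.
Socs3, chr11:117969317-117969616, minus strand: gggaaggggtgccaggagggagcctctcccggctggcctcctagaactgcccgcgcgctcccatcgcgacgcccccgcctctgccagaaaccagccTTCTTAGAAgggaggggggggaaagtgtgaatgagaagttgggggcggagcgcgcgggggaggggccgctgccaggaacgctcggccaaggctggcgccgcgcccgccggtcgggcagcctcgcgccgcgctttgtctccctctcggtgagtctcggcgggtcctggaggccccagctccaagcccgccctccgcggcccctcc
Stat2, chr10:128270248-128270547, plus strand: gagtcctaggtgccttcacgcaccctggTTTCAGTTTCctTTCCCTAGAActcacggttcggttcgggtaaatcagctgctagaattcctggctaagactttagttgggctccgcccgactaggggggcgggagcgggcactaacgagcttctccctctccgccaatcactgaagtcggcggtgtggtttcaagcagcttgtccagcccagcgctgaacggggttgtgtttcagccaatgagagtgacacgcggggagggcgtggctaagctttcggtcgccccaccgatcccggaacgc
Socs1, chr16:10785487-10785786, minus strand: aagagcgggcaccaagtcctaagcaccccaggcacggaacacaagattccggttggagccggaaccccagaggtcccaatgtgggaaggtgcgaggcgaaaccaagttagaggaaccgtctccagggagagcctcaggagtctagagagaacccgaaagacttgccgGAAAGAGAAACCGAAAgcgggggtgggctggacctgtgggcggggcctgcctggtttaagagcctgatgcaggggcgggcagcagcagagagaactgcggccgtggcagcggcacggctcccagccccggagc
Stat4 (second listed start), chr1:52007990-52008289, plus strand: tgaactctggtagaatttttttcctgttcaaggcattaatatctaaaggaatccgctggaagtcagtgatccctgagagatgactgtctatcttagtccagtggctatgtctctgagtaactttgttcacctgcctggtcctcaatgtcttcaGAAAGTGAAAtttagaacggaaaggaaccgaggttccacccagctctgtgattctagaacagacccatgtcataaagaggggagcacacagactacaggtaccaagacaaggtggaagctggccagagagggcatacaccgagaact

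Socs3, which encodes the inhibitor of the gp130 receptors, held the STAT site TTCTTAGAA at positions -154 to -146 from its start, counted as +1. This was the match to TTCNNNGAA among the 11 starts (1 of 11), and 7.76% of the 21044 starts of all protein-coding genes with a sequence held such a site. Stat2, which carries the type I interferon signal into the nucleus as part of a complex with an interferon regulatory factor, held an interferon element at -222 to -213 and a site with 4 spacer bases at -210 to -201. Socs1, the inhibitor best known for restraining interferon-gamma signalling, held a pair of overlapping interferon elements on the opposite strand at -83 to -74 and -77 to -68. At Stat4, the mediator of interleukin-12 signalling, the second start held an interferon element on the opposite strand at -97 to -88. Interferon elements were thus found at 3 of the 11 starts, against 3.38% of all starts, and the site with 4 spacer bases at 1 of 11, against 6.41%. A match gives only the letters and does not show that a protein was bound.

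A second set of sequences is shown because it links Stat5a and Stat5b, the near-identical factors that carry thrombopoietin and growth hormone signals. The listed starts of Stat5b, at 100822570 and 100850581 on chromosome 11, both lie inside its gene, whose 5′ end is at 100859004. That gene end was not used as a Stat5b promoter. The start at 100822570, further inside, is called the internal start here. Capitals here mark the longest stretch the 300 bases around that internal start share with those around the second start of Stat5a.
Stat5a (second listed start), chr11:100860234-100860533, plus strand: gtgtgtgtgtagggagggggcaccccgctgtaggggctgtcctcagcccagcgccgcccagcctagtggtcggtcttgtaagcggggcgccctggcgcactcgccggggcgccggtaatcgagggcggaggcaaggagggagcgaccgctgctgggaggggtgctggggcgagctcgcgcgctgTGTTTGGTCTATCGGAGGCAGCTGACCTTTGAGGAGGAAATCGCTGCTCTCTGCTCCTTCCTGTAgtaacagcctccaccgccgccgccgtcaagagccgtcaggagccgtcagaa
Stat5b (internal listed start), chr11:100822521-100822820, minus strand: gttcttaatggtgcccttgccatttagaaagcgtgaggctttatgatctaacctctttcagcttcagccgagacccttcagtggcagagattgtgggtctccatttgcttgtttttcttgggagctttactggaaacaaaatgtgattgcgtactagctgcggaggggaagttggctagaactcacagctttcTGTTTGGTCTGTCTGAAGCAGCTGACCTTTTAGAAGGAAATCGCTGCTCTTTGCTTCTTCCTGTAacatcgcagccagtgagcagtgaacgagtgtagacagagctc

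The marked stretch was 65 bases long and identical at 58 positions (89.2%), without gaps. It ran from -66 to -2 before the Stat5a start and from -57 to +8 around the internal Stat5b start, in the same direction relative to transcription. Of the 55 pairs that the 11 starts form it had the highest score, 44, with the next pair at 14 on a scale of 1 per identical base and -2 per difference. Both starts were called, meaning overlapped by a peak, in all 6 lists. The strongest summit, the point of highest signal, lay inside the stretch in 1 of 6 lists at Stat5a and in 2 of 6 at the internal Stat5b start. At Stat5a the summits were -124, -67 and -234 bases from the start in aged replicates 1, 2 and 3, against -103, -33 and -98 in young replicates 1, 2 and 3. At the internal Stat5b start the summits were at -42, 22 and -15 in the aged lists, against 28, 66 and 33 in the young lists. The differing bases were spread along the stretch, and the sequence on either side of it was unlike. Only a read short enough to lie between differing bases would match both copies equally. The labels do not say how such reads were handled.

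Lists of the same age differed widely, and this touches every count that follows. The sample titles also carry a number of unstated meaning, which is 2500 for replicate 2 and 5000 for replicate 3 of both ages and differs between the ages for replicate 1. They carry an experiment number as well, which is 2, 5 and 3 for replicates 1 to 3 of both ages. Aged and young lists that share it did not deviate together over 9582 regions (Pearson r 0.0557, -0.0398 and -0.0241 for replicates 1 to 3). Beyond that, whether either number moves with the differences between lists was not tested. The lists held 244692, 129137 and 129949 distinct peaks in aged replicates 1 to 3, against 263956, 254869 and 110596 in young replicates 1 to 3. Of the regions called in the other 5 lists, aged replicates 1, 2 and 3 called 98.0%, 99.6% and 75.6%, against 97.4%, 62.3% and 99.6% for the young replicates. Young replicate 2 stood apart: its 254869 peaks carried only 200 distinct −log10 p values, so its ranks are coarse and tied. Of 12 stem cell markers 7 (58.3%) had a promoter called in all 6 lists, against 34.4% of all protein-coding genes, among them Kit, Hlf, Meis1, Gata2 and Runx1, while Slamf1 was called in no list. Promoters of 3 of 3 megakaryocyte markers were called in all 6 lists, and no B cell, T or NK cell, myeloid, erythroid or endothelial marker was. The promoters of Cd34 and Flt3 (Flk2), both sorted against, were called in 5 and 4 lists. In a bulk sample, fewer cells with an open region and less opening per cell cannot be told apart.

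All 9 gene promoters were called in the 3 aged lists and in young replicates 1 and 3. A promoter here is 1 kb on either side of a listed start, or of both gene ends for Socs2, whose strand the table of starts did not give. Calls in all 6 lists were made for 6 of 9 genes, namely Stat2, Stat3, Stat5a, Stat5b, Stat6 and Socs1, against 34.4% of all protein-coding genes. Stat4, Socs2 and Socs3 were missing in young replicate 2 alone. That list alone also missed 2088 of the 9537 genes called in the other 5 lists (21.9%), and whether the 3 genes differ from those was not tested. Without young replicate 2 the promoter count was 9 of 9, against 44.1% of all genes. No member promoter was called in all lists of 1 age and none of the other. This pattern was rare over all 21627 genes, with 34 in the aged direction and 53 in the young.

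**Figure D1:**
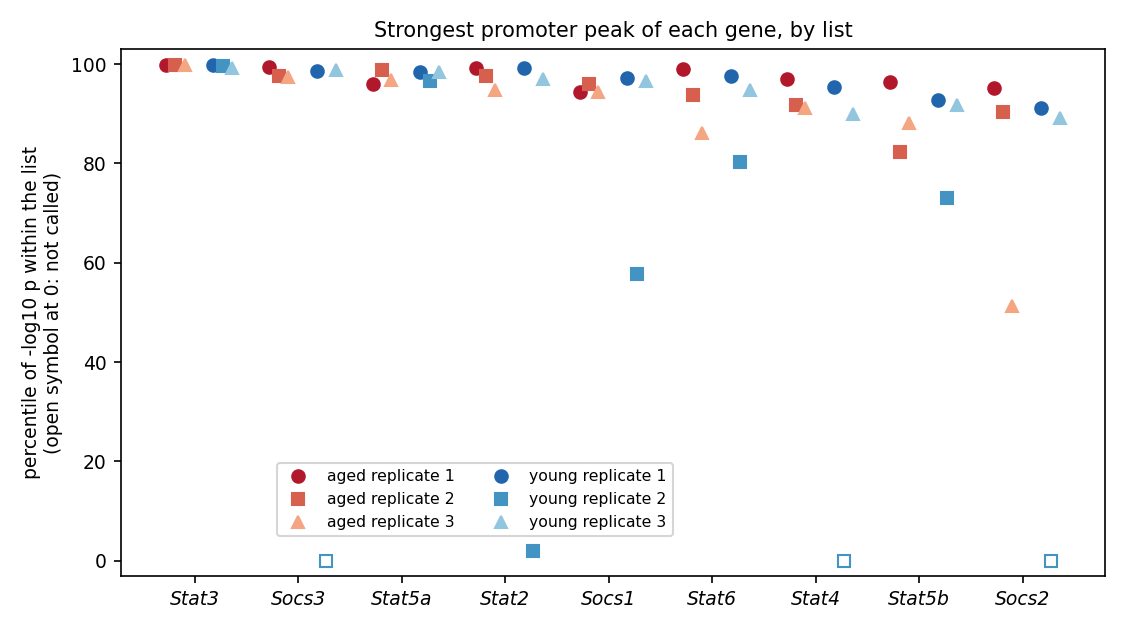
Percentile of the strongest promoter peak of each gene among all peaks of the same list (vertical axis, 0 to 100) for the 9 genes, ordered by their median over the 6 lists; reds are the 3 aged lists, blues the 3 young lists, and an open symbol at 0 is a promoter that was not called. Stat3 sits at 99.1 or above in all 6 lists, and the low points belong to young replicate 2 except for Socs2 in aged replicate 3 (51.4).

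The strength of a peak was ranked within its own list by the authors' −log10 p, as a percentile from 0 to 100, since the lists have no common scale. Stat3, the factor of interleukin-6 and granulocyte colony-stimulating factor, had the highest median promoter percentile of the 9 genes. Its promoter peak reached the 99.93, 99.82 and 99.91 percentile in aged replicates 1 to 3, against 99.77, 99.53 and 99.14 in young replicates 1 to 3. Every aged list was above every young one, and the mean difference was 0.402 (mean 99.88 ± 0.06 over the aged lists, against 99.48 ± 0.32 over the young ones; SD over 3 lists). An exact two-sided permutation test over the lists gave p = 0.1, the smallest value that 3 against 3 lists allow.

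As the rank of a gene among the promoters called in a list, the Stat3 promoter was 172nd of 14495, 280th of 13926 and 134th of 11149 in the aged lists. It was 612th of 14463, 750th of 10768 and 986th of 13954 in the young lists. The authors' fold enrichment at this peak was 14.4, 15.5 and 11.4 in the aged lists, against 12.3, 5.51 and 14.2 in the young lists, and these values overlapped between the ages. Gene promoters whose aged percentiles all exceeded the young ones made up 1.89% of all genes, and among the 9 genes this was Stat3 alone (1 of 9). The opposite pattern was found at 1.55% of all gene promoters and at none of the 9. The order of the ages at Stat3 was the same when only peaks with a q-value of at most 0.05 were ranked (mean difference 0.923) and when each list kept its 100000 strongest peaks (0.738). Ranked among the 9582 regions called in all 6 lists, the Stat3 promoter lay at 98.2, 97.6 and 98.8 in aged lists, against 94.0, 91.1 and 90.6 in young lists. On that scale 5% of these regions had all aged ranks above all young ones. Its summits lay 55 bases past to 210 bases before the start, on chromosome 11 at 100939540, within the merged region from 100939249 to 100939993.

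Stat5a and Stat5b, which overlap in function in blood stem cells, differed in how evenly their promoters were called. Stat5a stood at 96.1, 98.8 and 96.8 in aged lists, against 98.5, 96.6 and 98.5 in young lists, so the ages overlapped (difference -0.66, exact permutation p = 0.7). It varied least after Stat3, and it kept a percentile of 96.6 even in young replicate 2. The strongest Stat5b promoter peak stood at 96.5, 82.3 and 88.2 in aged lists, against 92.7, 73.1 and 91.8 in young lists (difference 3.10, exact permutation p = 0.7). That difference was -3.29 without young replicate 2 and -0.65 without aged replicate 1. In aged replicate 1 and young replicate 2 that strongest peak was at the internal start, and in the other 4 lists at the start at 100850581.

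The 2 Stat5b starts had unlike sequence. The 300 bases around the start at 100850581 were 82.7% G or C and were called in 5 lists, while those around the internal start were 47.3% G or C and were called in 6. Over all 21044 starts the median was 56.7%, with 63.3% for starts called in all 6 lists and 47.3% for starts called in none. At the internal Stat5b start the percentiles were 96.5, 79.3 and 51.4 in aged lists, against 82.2, 73.1 and 85.8 in young lists, which overlap. The first listed Stat5a start, at 100859656, was called within its 300 bases in 3 lists. In all, 6 of the 11 member starts were called in every list, against 24.7% of all starts.

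**Figure D2:**
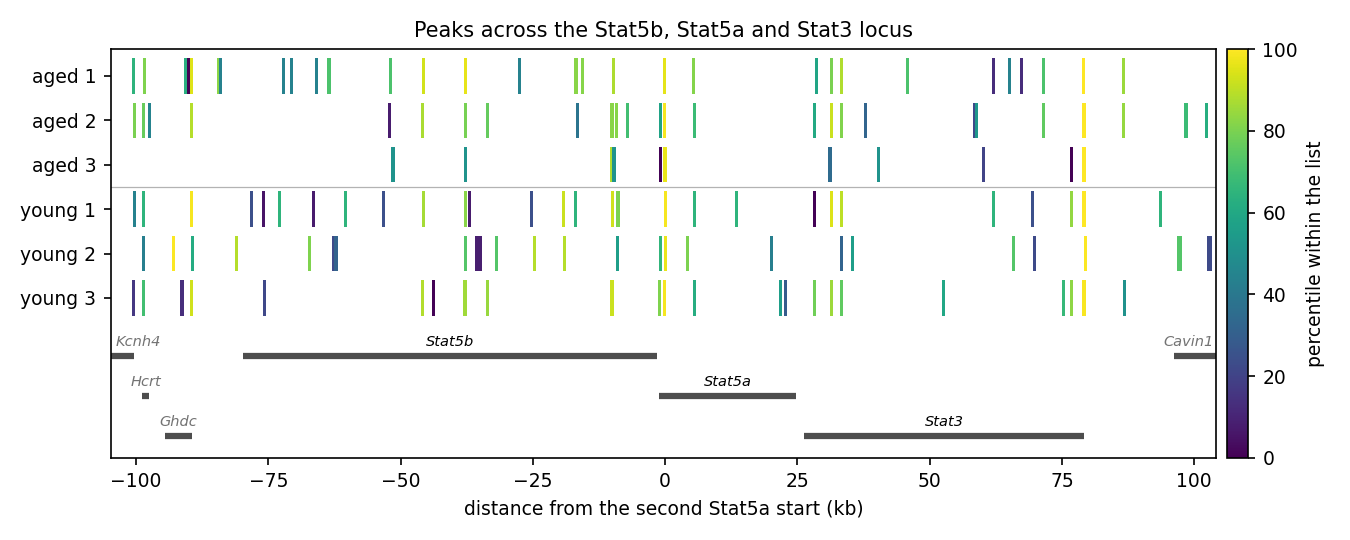
Peaks of each list (rows, the 3 aged lists above the 3 young lists) across the joined Stat5b, Stat5a and Stat3 stretch, by distance in kb from the second Stat5a start; colour is the percentile within the list, and very narrow peaks are drawn wider to be visible. Of its 85 regions 3 are shared by all 6 lists, the promoters at 0 kb (Stat5a), near -38 kb (Stat5b, internal start) and near 79 kb (Stat3), and most other peaks stand in 1 row.

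Stat2 had promoter percentiles of 99.3, 97.5 and 94.8 in aged lists, against 99.2, 1.97 and 97.0 in young lists. The single low value was that of young replicate 2, where the peak had a fold enrichment of 1.79, and the other 5 values overlapped between the ages (difference 31.1, exact permutation p = 0.6). Without young replicate 2 the difference was -0.91. Stat6, which carries interleukin-4 signals, stood at 99.1, 93.8 and 86.2 in aged lists, against 97.6, 80.3 and 94.8 in young lists (difference 2.10, exact permutation p = 0.7). Leaving out young replicate 2 turned that difference to -3.21, and leaving out aged replicate 1 to -0.93.

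At Stat4 the first listed start, at 51987148 on chromosome 1, was called in no list. Its promoter calls came from the second start at 52008240, and their summits lay 165 to 382 bases past it, downstream of the printed sequence. The percentiles were 97.0, 91.8 and 91.1 in aged lists, against 95.3, 0 (not called) and 89.9 in young lists, and the difference of 31.6 had an exact permutation p of 0.4. Without young replicate 2 the difference was 0.689. Around the first start the sequence was 50.7% G or C with a CpG content of 0.104 of that expected from its bases, and around the second 46.0% with 0.253. The median CpG content was 0.833 for starts called in all 6 lists, above both, and 0.207 for starts called in none, which lies between them.

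Among the inhibitors, Socs3 had the second highest median percentile of the 9 genes, 98.1. Its promoter stood at 99.3, 97.7 and 97.5 in aged lists, against 98.6, 0 (not called) and 98.7 in young lists, so the lists that called it overlapped between the ages (difference 32.4, exact permutation p = 0.8). Summits lay 29 to 70 bases past the start, and the STAT site at -154 to -146 lies inside the merged region, 117968870 to 117969679 on chromosome 11. Socs1 stood at 94.4, 96.0 and 94.3 in aged lists, against 97.2, 57.7 and 96.6 in young lists (difference 11.1, exact permutation p = 1). Its merged region was the widest of the promoters called in all 6 lists, 1205 bp from 10784995 to 10786199 on chromosome 16, and it spans the pair of interferon elements. Socs2, a target of STAT5 that restrains growth hormone signalling, had the lowest median, 89.8. Its values were 95.2, 90.4 and 51.4 in aged lists, against 91.2, 0 (not called) and 89.3 in young lists (difference 18.8, exact permutation p = 0.6). In aged replicate 1 that strongest peak had its summit 759 bases beyond the gene end at 95417321. In the other lists that called it, summits lay at -529 to -487 from that end. At the region these lists shared, 95416333 to 95417439 on chromosome 10, aged replicate 1 stood at 87.7 and the difference was 16.4. Each of these regions is also at the promoter of 5730420D15Rik. Without young replicate 2 the differences of Socs3, Socs1 and Socs2 were -0.50, -1.98 and -11.2.

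By median percentile the genes ran Stat3, Socs3, Stat5a, Stat2, Socs1, Stat6, Stat4, Stat5b and Socs2. Within each of the 6 lists Stat3 stood highest of the 9 genes. Taken over the lists, the range of each gene overlapped those of its neighbours in this order. The least overlap was between Stat3, whose lowest value was 99.14, and Socs3, whose highest was 99.34. Those values come from different lists, young replicate 3 and aged replicate 1, and in young replicate 3 Socs3 stood at 98.73. Against the median of all called gene promoters in the same list, 8, 6 and 5 of the 9 genes were higher in aged replicates 1 to 3, and 6, 3 and 6 in young replicates 1 to 3.

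The gene whose promoter percentiles were closest to those of Stat3 over the 6 lists was Hnrnpc, with a mean absolute difference of 0.0481 per list. Exoc4 was closest to Socs3 (0.278), Pkm to Stat5a (0.399) and Inafm1 to Stat2 (0.458). For the other 5 genes the closest were Pkia to Socs2 (0.519), Rnf39 to Stat4 (0.632), Cyb561a3 to Socs1 (0.848), Syvn1 to Stat6 (1.26) and Zbtb38 to Stat5b (1.3003). Values from the same 6 libraries enter both sides, and each match is the closest of 21627 genes.

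Across the 7 stretches, 13 of the 279 regions were called in all 6 lists (4.66%), against 1.61% of the 550431 regions within 25 kb of any protein-coding gene. Another 200 regions (71.7%) were called in 1 list only, against 82.9% of that background, and 41 (14.7%) in at least 4 lists, against 4.80%. Of the 13 regions, 6 were promoters of the genes themselves and 6 were promoters of neighbours: Gm31812 near Stat4, Pan2 near Stat2, and Lrp1, Nab2 with 1700012D01Rik (a pair of regions) and Nemp1 near Stat6. The remaining 1 lay inside Stat4. Without young replicate 2, 23 regions were called in all 5 remaining lists, a setting for which no background share of regions was worked out. Regions of all 6 lists were 661 bp wide at the median and those of 1 list 176.5 bp.

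**Figure D3:**
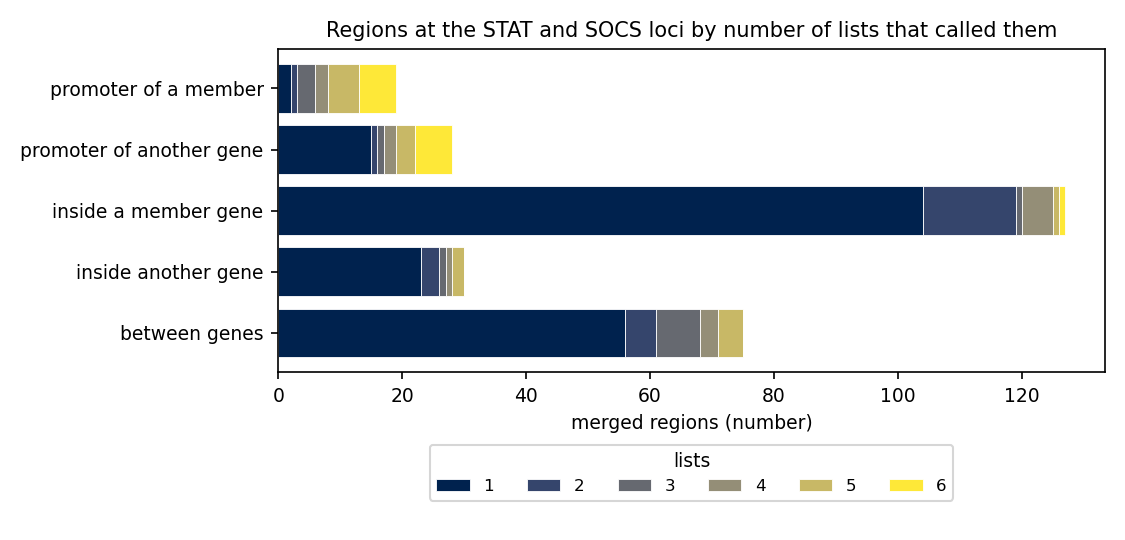
Number of merged regions (horizontal axis) at the STAT and SOCS stretches by place, with colours for the number of lists, 1 to 6, that called them. Of 19 regions at a member promoter 6 are in all 6 lists, of 127 inside a member gene 1 is, and of 75 between genes none is.

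No region at these genes was called in the 3 aged lists and none of the young, nor in the 3 young and none of the aged. In the background these patterns were found at 0.0558% and 0.0709% of regions. Without aged replicate 3, 4 regions were called in both remaining aged lists and no young list (1 region without aged replicate 1 or 2). Without young replicate 2 or aged replicate 2, 1 region was called in all remaining young and no aged lists. The background shares hold for all 6 lists. None was worked out with lists left out, so these counts have no background beside them. With all 6 lists, the nearest to such a pattern were 6 regions called in 2 aged and 0 young lists, 1 in 0 aged and 2 young lists, and 1 in 1 aged and 3 young lists. That last region lies between genes, 19569 bases past the Socs3 start (chromosome 11, 117949398 to 117950197), and was ranked at 0, 45.1 and 0 in aged lists, against 43.9, 61.5 and 70.0 in young lists. It is 1 region only because the wide peak of young replicate 2, 19169 to 19968 bases past the start, joined separate peaks. The young replicate 1 peak (19412 to 19561) overlapped neither that of aged replicate 2 (19729 to 19924) nor that of young replicate 3 (19769 to 19940). More aged than young lists called 119 regions, more young than aged lists called 117, and 43 were level. The share of all distinct peaks that lay at these genes was 0.0450%, 0.0643% and 0.0493% in aged lists, against 0.0322%, 0.0361% and 0.0615% in young lists, and the ages overlapped.

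The 7 regions outside member promoters that all 6 lists called showed no age order: 0 of 7 had every aged percentile above every young one, against 3.55% of the 9582 regions called in all 6 lists, and 0 of 7 had the reverse, against 2.54%. The only one of them inside a member, at 52011198 to 52011639 on chromosome 1, lay 3178 bases past the second Stat4 start. Its percentiles were 96.2, 92.4 and 75.8 in aged lists, against 96.1, 13.2 and 88.3 in young lists (difference 22.2, exact permutation p = 0.6, and -4.09 without young replicate 2). Whether it lies in an exon or an intron was not resolved, as the table of genes used gives no exons.

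Distal regions were shared most around Socs3. Of its 20 regions only 4 were called in 1 list (20%), and 9 were called in at least 4 lists, of which 6 were no promoter. At Socs2, 35 of 39 regions were called in 1 list, and no region outside a promoter reached 4 lists. The strongest distal region of the SOCS genes lay 5765 bases past the Socs3 start, in the gap beyond the gene (chromosome 11, 117963223 to 117963980). It stood at 97.6, 96.6 and 98.3 in aged lists, against 98.97, 0 (not called) and 98.01 in young lists, and these values overlap those of the Socs3 promoter. Further regions on that side, at 10936, 15121 and 22553 bases past the start, were called in 5, 4 and 5 lists. Upstream, a region inside Pgs1, at -22549 bases from the start, was called in 2 aged and 3 young lists.

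**Figure D4:**
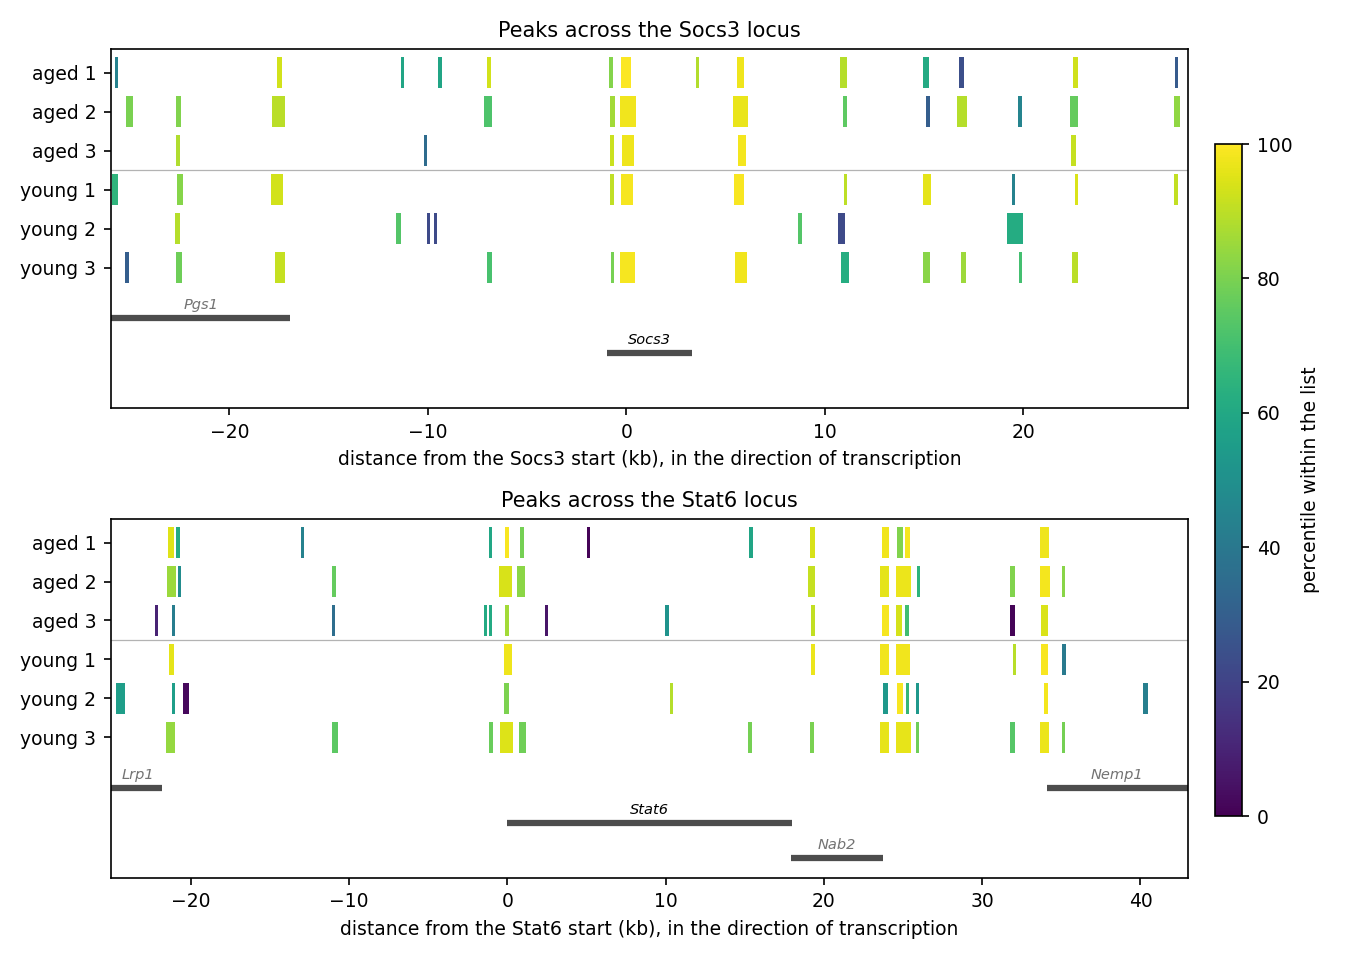
Peaks of each list (rows, the 3 aged lists above the 3 young lists) across the Socs3 and Stat6 stretches, by distance in kb from the start in the direction of transcription; colour is the percentile within the list. Columns of peaks repeat over the rows at Socs3 past its start, where the region at 5765 bases is missing in young replicate 2 alone, and at Stat6 over the promoter and the neighbours Nab2 and Nemp1.

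Among the STAT genes, the region at -11176 bases from the Stat2 start (chromosome 10, 128258890 to 128259755) was the strongest that lay in no gene. It stood at 97.8, 90.2 and 85.5 in aged lists, against 97.5, 0 (not called) and 86.5 in young lists. Inside Stat3, far past its start, 3 regions were called in at least 4 lists. The region at 47752 bases stood at 79.9, 91.9 and 0 in aged lists, against 94.8, 0 and 85.3 in young lists. The region at 45837 bases, called in 1 more list, stood at 88.1, 81.1 and 0 in aged lists, against 90.05, 31.9 and 75.6 in young lists. A region 7971 bases past the internal Stat5b start was called in aged replicates 1 and 2 (93.1 and 87.3) and in young replicates 1 and 3 (86.5 and 88.6). In Stat5a the region at 5313 bases past the second start was called in the same 4 lists, at 81.6 and 68.3 in aged lists, against 65.0 and 62.2 in young lists. At Stat6, 4 of the 7 regions in at least 4 lists were promoters of other genes, and the strongest distal region outside promoters lay in Nab2, 19211 bases past the Stat6 start, at 94.0, 91.4 and 90.9 in aged lists, against 96.9, 0 (not called) and 80.0 in young lists. Around Socs1 the region at 16553 bases past the start was the only one outside its promoter that reached 4 lists, and its percentiles of 26.9, 70.9 and 0 in aged lists, against 89.9, 0 and 37.6 in young lists, were low and uneven. At these regions of the STAT genes and Socs1 the ages overlapped, and the lists without a call were aged replicate 3 or young replicate 2.

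The wider pathway was read from lists of genes chosen by their roles, 58 genes in all. Among the JAK kinases, Cish and the other SOCS genes, which stand directly beside the 9 genes in the pathway, 8 of 9 promoters (88.9%) were called in all 6 lists, where the share over all genes was 34.4%. The exception, Cish, a STAT5 target and SOCS relative, stood at 96.2, 93.6 and 93.8 in aged lists, against 93.7, 0 (not called) and 91.1 in young lists. Of the 26 cytokine receptors 11 (42.3%) were called in all 6 lists, which is near the 34.4% of all genes. Il12rb1, a subunit of the receptor upstream of Stat4, was the only gene of the 58 called in none. Lifr, the leukaemia inhibitory factor receptor, which signals through Stat3, stood at 93.8, 88.5 and 91.2 in aged lists, against 86.5, 0 (not called) and 85.1 in young lists. Osmr, the oncostatin M receptor, was called in aged replicates 1 and 2 at 24.8 and 66.9, against no young list. Il12rb2, the other interleukin-12 receptor subunit, stood at 96.6, 93.6 and 0 (not called) in aged lists, against 96.1, 88.8 and 93.1 in young lists. Csf2rb2, a receptor chain for interleukin-3, was called in aged replicates 1 and 2 at 91.7 and 85.9, against young replicate 3 at 81.1. Of these receptors Lifr alone had ages that did not overlap, in the aged-higher direction.

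Of 11 other negative regulators, such as the phosphatases Ptpn1 and Ptpn2 and the PIAS proteins, 9 (81.8%) were called in all 6 lists, set beside the same 34.4%. Ptpn6, the phosphatase SHP-1, was called in aged replicates 1 and 2 at 93.3 and 90.5, against young replicate 3 at 80.3. Ptprc, the phosphatase CD45, stood at 84.9, 85.5 and 0 (not called) in aged lists, against 94.1, 73.1 and 88.1 in young lists. Of 12 known STAT targets 7 (58.3%) were called in all 6 lists, again beside 34.4% over all genes. Ccnd1, the cyclin D1 gene, was called in no aged list, against young replicates 1 and 3 at 79.4 and 56.9. Bcl6, a transcriptional repressor, stood at 97.1, 96.2 and 95.5 in aged lists, against 99.5, 0 (not called) and 95.0 in young lists. Myc, which drives growth, stood at 96.0, 96.4 and 83.8 in aged lists, against 97.8, 0 (not called) and 93.9 in young lists.

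No gene in these 4 groups was called in all lists of 1 age and none of the other, a pattern found at only 34 (aged) and 53 (young) of all 21627 genes. Every aged percentile exceeded every young one at Jak3, Lifr, Pias2 and Pim2, 4 of 58 genes, and the reverse held at Socs6, 1 of 58; over all genes these shares were the 1.89% and 1.55% given above. Young replicate 2 was the lowest young list at these 4 genes, and at Jak3 it stood at 31.9, against 93.5, 94.3 and 94.2 in the aged lists and 93.0 and 92.5 in the other young lists.

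**Figure D5:**
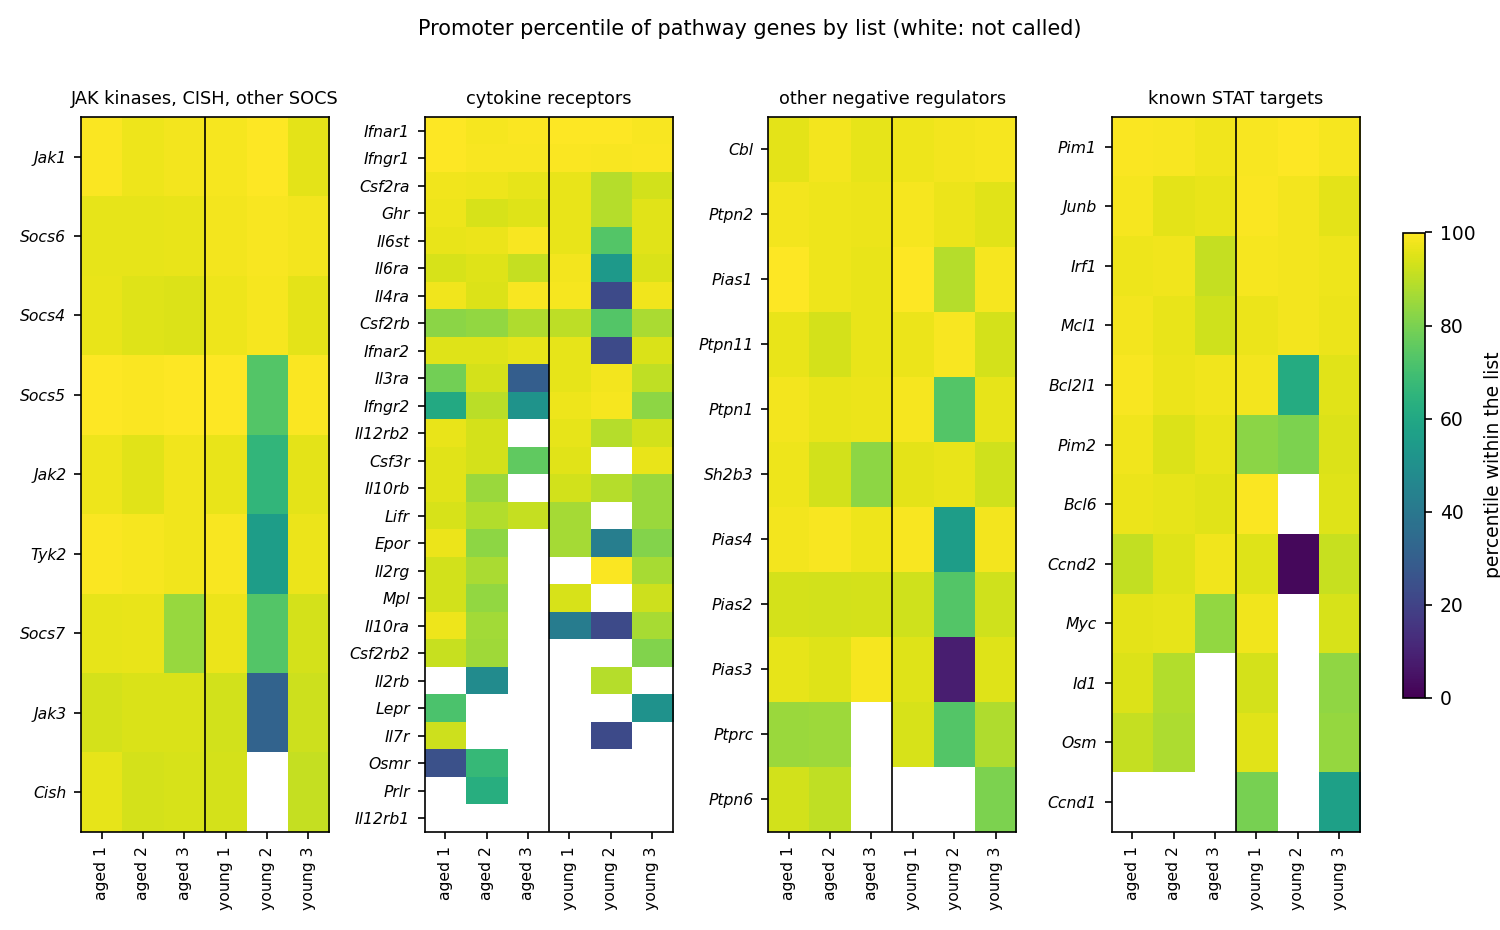
Promoter percentile (colour, 0 to 100; white is not called) of the genes of 4 pathway lists (rows) in the 3 aged lists and, right of the black line, the 3 young lists. Most JAK, SOCS and negative regulator promoters are coloured in every column, the receptors are white more often, and white cells are most frequent in aged replicate 3 and young replicate 2.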

How the data were processed

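ATAC-seq peak lists of sorted long-term haematopoietic stem cells were used, 1 per sample, and the titles gave age, replicate number, an experiment number shared by samples of the same replicate number and a further unexplained number. The submitters' processing notes name mm10 as the build and list MACS2, Bowtie2, Picard and SAMtools. Tool settings and versions, read numbers and any shift for the transposase are not given in the sources used here. Depth is therefore unknown, and no counting interval can be given. The deposited lists hold a score, a fold enrichment (a ratio of peak over background), a −log10 p and a −log10 q for each peak, and the authors called peaks in each sample separately. The smallest deposited −log10 p was 2.00, so weak peaks are included, and these values are the authors' own.

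Rows with the same interval were joined to distinct peaks, on chromosomes 1 to 19 and X. Percentiles are ranks of the −log10 p among the distinct peaks of a list, with ties averaged and an uncalled promoter or region set to 0. Regions are peaks merged over the 6 lists at 1 bp of overlap. Promoters are 1 kb on either side of the listed RefSeq starts (17273 genes with strand) or of both gene ends (4354 genes, Socs2 among them). Ages were compared by exact two-sided permutation tests over the 6 lists, 1 value at a time; the procedure was tested on simulated data. Their p-values reflect only how these samples vary, and the labels do not say whether each came from a separate animal. The labels do not say what a shared experiment number means, and samples that share it did not deviate together, so the tests were unpaired and the paired version is an alternative. Python 3.11.15, pandas 2.3.3, NumPy 2.4.6, SciPy 1.17.1 and Matplotlib 3.10.9 were used.

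The genes and lists were chosen with earlier results of these data known. Named were the 9 genes with their promoters and strongest distal regions, and from each pathway list up to 4 genes with the largest difference between the ages in lists called; distal regions beyond the 3 strongest of a gene, the genes with no overlap between the ages, Il12rb1 and the likeness of the Stat5a and Stat5b starts were picked out after their values or sequences were seen. Strongest distal regions are those with the highest mean percentile, uncalled lists counting as 0. Of the neighbours with a promoter in the flank of Stat4, 1 is not reported here. Alternatives were narrower flanks, other promoter windows, a limit on q, lists of equal length, another merging rule, another ranking, a replicate block and leaving out lists.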

Additional observations from a re-analysis of the deposited data

How the results depend on the processing

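The 13 regions called in all 6 lists became 6 with gene bodies alone, 8 with peaks at a q-value of at most 0.05 and 8 with the 100000 strongest peaks of each list. Leaving out 1 list at a time gave 13 to 23 such regions, 0 to 4 regions in every aged and no young list, 0 to 1 in every young and no aged list, 6 to 9 promoters and a difference in peak share of 0.00384 to 0.0187 percentage points; the highest region and promoter counts came without young replicate 2, and the 4 regions came without aged replicate 3. An alternative chosen after seeing the data left out both young replicate 2 and aged replicate 3: 37 regions were then called in all 4 lists, 4 in every aged and no young list, and 2 in every young and no aged list. No background share of regions was worked out with lists left out. Over the same single lists the promoter differences ranged from -1.98 to 17.8 for Socs1, -11.2 to 34.4 for Socs2, -0.50 to 48.9 for Socs3, -0.91 to 47.7 for Stat2, 0.23 to 0.55 for Stat3, 0.69 to 48.3 for Stat4, -1.44 to -0.09 for Stat5a, -3.29 to 6.53 for Stat5b and -3.21 to 5.52 for Stat6. Each lowest value from Socs1 to Stat2, and those of Stat4, Stat5b and Stat6, came without young replicate 2. Ranking among the regions of all 6 lists gave -2.37 for Stat5b, -3.15 for Stat6, -2.96 for Socs1 and -21.6 for the region at Gm31812. Without both lists the differences were -2.88 for Stat5b, -1.69 for Socs1 and -0.15 for Socs3. Distal regions, most of whose alternatives were added after seeing the data, ranged with single lists left out from -4.09 to 37.4 inside Stat4, -2.67 to 2.78 at Gm31812, -0.0704 to 18.9 at Pan2, -15.8 to 11.6 at Lrp1, 0.47 to 22.6 and -2.54 to -0.05 at the pair of Nab2 regions, and -2.31 to -0.38 at Nemp1. The Lrp1 region, -4.39 as reported, gave 3.12 with the limit on q and 7.44 with the strongest peaks. Without both lists the differences were -1.65 at Gm31812, 0.18 at Lrp1, and -0.0892 and 0.63 at the Nab2 pair. The causes were not tested.

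With the replicate number as a block, only the test could change. Each block holds 1 list of each age, so the mean differences, such as 0.00956 percentage points for the share, are the same by construction. Calls do not depend on the block. Exact sign-flip tests gave p = 0.25 for Stat3 and Stat4, the smallest 3 pairs allow, and 0.5 to 1 for the other 7 genes. Samples with the same number did not deviate together over 9582 regions (Pearson r 0.0557, -0.0398 and -0.0241), and although the titles give both ages the same experiment numbers, the labels do not say what these share. With unknown depth, a missing call does not show a closed region.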
